A study of Mus musculus with 24 samples.

Results

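The effect of losing the TGF-beta type II receptor gene, Tgfbr2, was compared between the lower jaw (mandible) and the upper jaw (maxilla) of the mouse embryo at their proximal ends, the ends nearer the jaw joint. The comparison used the 12 proximal arrays of a series of 24, chosen as every array labelled proximal: both jaws, control and knockout, 3 arrays in each of 4 groups. For each gene the knockout-minus-control difference in the maxilla was subtracted from that in the mandible, on the log2 scale, so 1 unit is a doubling of signal. This quantity is called the jaw difference below: it is negative where the knockout level was lower relative to control in the mandible than in the maxilla, and positive where it was higher. The other 12 arrays, of the distal ends, entered the fit as an estimate of spread and gave the same quantity at the distal ends.

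All embryos were of C57B6 background at E12.5. They came from Wnt1-Cre;Tgfbr2 fl/+ mice crossed to Tgfbr2 fl/fl mice, and both jaws were cut into a distal and a proximal end. Genotypes were taken from the array labels, which do not say how an embryo was genotyped. Controls were littermates. Their alleles are not stated in the labels either, so a control may carry Cre with 1 floxed allele. The Wnt1 promoter drives Cre in the neural crest, so skeletal muscle cells, epithelium, vessel endothelium and placode-derived neurons of a knockout jaw keep their Tgfbr2 gene. Nothing in the labels ties an array to 1 embryo or to a pool, and the p-values therefore measure the spread between arrays.

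TGF-beta ligands bring together a type II and a type I receptor kinase, which phosphorylate Smad2 and Smad3. In the face most mesenchyme comes from the cranial neural crest, and the jaws are covered by epithelium and supplied by the trigeminal nerve. The sensory neurons of the trigeminal ganglion arise from both crest and placode. They pass through a stage marked by Neurog1, Neurod1 and Nhlh2, bHLH factors of newly formed neurons, to one marked by Pou4f1 and Isl1, homeodomain factors of differentiating sensory neurons.

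Total RNA was hybridised to single-colour arrays, and the deposited values are log2 intensities from RMA. Of 18193 genes, 14879 passed the filter on dim signal and were tested with limma, with p-values adjusted by the Benjamini-Hochberg method over all of them and a threshold of 0.05. A gene is said to pass the test, or to have risen or fallen, only at that threshold. The 30th percentile of a proximal array lay between 5.85 and 5.93, and values under it are treated as background, so a difference against a group at that level is a lower bound. The labels of jaw held: Hand2, a transcription factor of the lower jaw, read 10.81 to 12.97 on the mandible arrays and 5.12 to 7.88 on the maxilla arrays. Tgfbr2 itself did not separate the genotypes by signal. Its probe set read 11.51 to 12.16 on the control and 11.79 to 12.65 on the knockout arrays, and its place relative to the deleted stretch was not checked here, so it checks no label of genotype.

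The 3 arrays of a group were not equally alike. Control maxilla 1, knockout mandible 1 and knockout maxilla 3 each correlated more closely, over genes, with the distal arrays of their own jaw and genotype than with the other proximal arrays of their group. Knockout maxilla 3 stood farthest apart, with a mean correlation of 0.205 with its group and 0.378 with the distal knockout maxilla, against -0.158 and -0.044 with those distal arrays for knockout maxilla 1 and 2. Likeness to the distal arrays also split by group. It was 0.6 to 0.692 in the control maxilla and 0.484 to 0.597 in the knockout mandible, against -0.098 to 0.095 in the control mandible. Control mandible and knockout maxilla thus stood on 1 side, the same form as the jaw difference. The part of this split in the result was not tested. The arrays of control number 2, in both jaws, were the only ones with signal from Y-linked genes. The knockout maxilla was also the most variable group, with a median SD over genes of 0.139, against 0.098 in the control maxilla, 0.11 in the knockout mandible and 0.08 in the control mandible.

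The knockout effect differed between the jaws in 104 genes (0.699% of those tested), of which 63 (0.423%) had a negative and 41 (0.276%) a positive jaw difference. Of the 63, 14 belonged to the neuron lists, and these had a higher mean in the knockout than the control maxilla. Of the 41, 6 belonged to the epithelium list, and these had a lower mean in the knockout than the control maxilla. The rest of both groups were in no list. In the mandible the mean effects mostly had the opposite sign, but only 4 of the 63 and 0 of the 41 passed there by limma. The negative differences ran from -8.61 to -1.10 with a median of -3.29, and the positive ones from 0.40 to 4.54 with a median of 2.15. All 63 genes of the negative group had opposite signs in the jaws, and 50 of them had control and knockout arrays that did not overlap in either jaw. In the positive group 39 of 41 had opposite signs and 29 had no overlap. Both groups were picked by the jaw difference on these same arrays, which favours opposite signs and separated genotypes. The counts of both are therefore a description and no separate evidence of opposite effects. Over all genes tested, 0.531% were higher in the knockout mandible and lower in the knockout maxilla with no overlap between genotypes, and 0.766% were the other way round.

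The size of the effect in each jaw depended on the arrays used. With all arrays, the median effect in the 63 genes was -1.01 in the mandible and 2.18 in the maxilla, and in the 41 genes 0.69 and -1.46. Within a jaw, 859 genes (5.77%) passed the test in the maxilla, 483 (3.25%) risen and 376 (2.53%) fallen, against 8 (0.0538%) in the mandible, 2 (0.0134%) risen and 6 (0.0403%) fallen. At an unadjusted p under 0.05 the mandible had 312 genes (2.10%) higher and 113 (0.759%) lower in knockout, and the maxilla 1787 (12%) and 2074 (13.9%). Of the 104 genes, 96 also passed in the maxilla. Without knockout maxilla 1 and 2, an alternative added after the data were seen, the order turned round: 31 genes passed in the mandible and 7 in the maxilla, where 1 array was left and was assumed to vary like the other groups. Under cyclic loess normalization the maxilla counts were 602 risen and 286 fallen. Effects above 1 in size were found in 619 genes in the maxilla and 97 in the mandible, and the effects of the jaws had a Pearson correlation of -0.27 across the 14879 genes, which is a description, since genes are not independent.

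**Figure D1:**
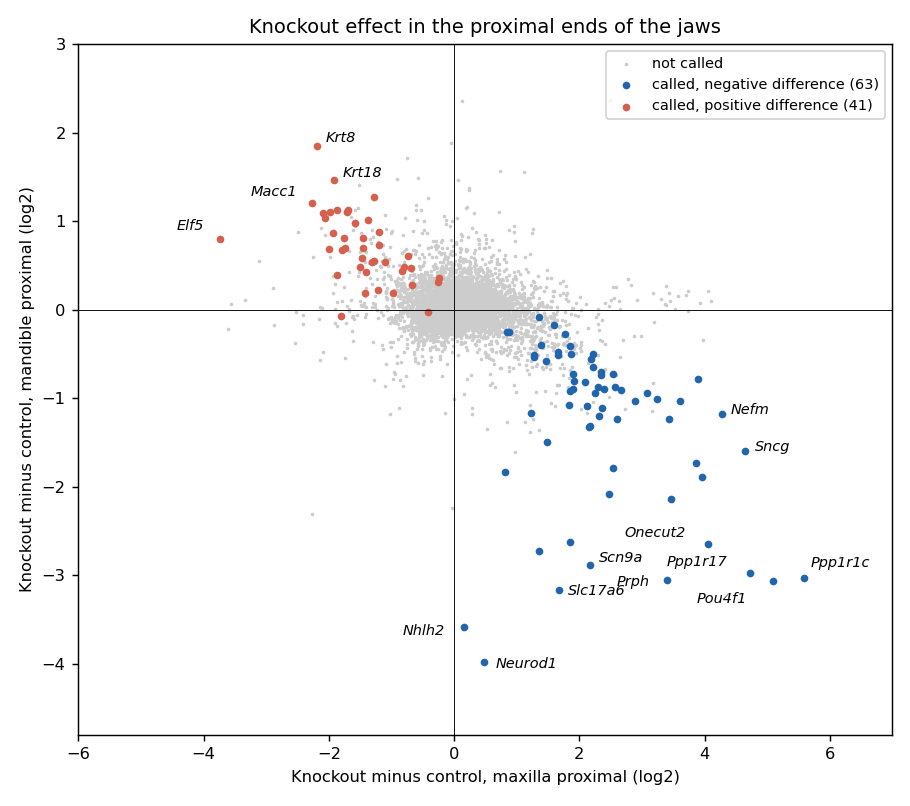
Each point is a gene, placed by its knockout-minus-control difference in the proximal maxilla (x) and in the proximal mandible (y), both in log2 units, with the genes that passed the test of the jaw difference coloured by direction. The 63 negative genes lie at the lower right and reach further along the maxilla axis than the mandible axis, and 39 of the 41 positive genes lie at the upper left.

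The number of genes past the threshold moved with the arrays used. Leaving out knockout maxilla 3 gave 1423 genes and leaving out knockout maxilla 2 gave 20, and the number lay between 28 and 163 when any other proximal array was left out. The maxilla count moved likewise, to 3366 without knockout maxilla 3 and 19 without knockout maxilla 2, and the mandible count to 28 without knockout maxilla 3 and 17 without knockout mandible 2. The mandible count was 1 or 2 without control mandible 2, control mandible 3 or knockout mandible 1. By limma it was 0 without control mandible 1 (253 higher and 82 lower at an unadjusted p under 0.05) and 0 without knockout mandible 3 (189 and 129). All 104 genes kept their direction in each of those 12 fits. They were picked on these same arrays, so this is a description and no separate evidence. All 104 passed without knockout maxilla 3. Of the 63 negative genes, 24 passed when knockout maxilla 1 and 2 were both left out, and 20 passed whichever of the 12 arrays was dropped. Of the 41 positive genes, 0 passed without knockout maxilla 1 and 2, where limma gave 184 positive and 152 negative genes at an unadjusted p under 0.05, and 0 passed in all 12 fits without 1 array. Without knockout mandible 2 the split was 101 positive and 62 negative, and with array weights 1135 and 1059. Fitting the 12 proximal arrays alone left 10 genes, 9 of them among the 104, and adding array number within genotype as a block to that fit left 1. Knockout maxilla 3 was the lowest array of its group for all 63 negative genes and the highest for 40 of the 41 positive ones. Without control maxilla 1 and knockout mandible 1 (at both ends), or without the control arrays of number 2, only Pou4f1, Ppp1r1c, Ppp1r17, Prrxl1 and Sncg passed, all negative.

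Pou4f1, a POU homeodomain factor that sets the sensory neuron programme, showed the pattern most plainly. It read 8.88, 8.37 and 8.05 in the control mandible and 5.14, 5.51 and 5.44, at background, in the knockout mandible. In the maxilla the order was turned round, with 5.26, 5.25 and 5.43 in control and 11.41, 11.29 and 8.50 in knockout. Neither jaw had overlapping genotypes, and both low groups were at background. The fall in the mandible was -3.07 (SE 0.48, adjusted p = 0.0185), the rise in the maxilla 5.09 (adjusted p = 2.25e-05), and the jaw difference -8.15 (SE 0.68, adjusted p = 3.11e-06). It ranged from -9.10 to -7.65 as single arrays were left out and was -6.25 without knockout maxilla 1 and 2. In whole pieces of jaw, fewer neurons and less of these transcripts per neuron cannot be told apart.

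Ppp1r1c, an inhibitor subunit of protein phosphatase 1, had a jaw difference of like size. It read 9.89, 9.04 and 8.76 in the control mandible, 5.98, 6.62 and 6.01 in the knockout mandible, 5.92, 5.83 and 5.65 in the control maxilla, and 12.45, 12.16 and 9.52 in the knockout maxilla. The genotypes did not overlap in either jaw, and the jaw difference was -8.61 (SE 0.72, adjusted p = 3.11e-06), made of -3.03 in the mandible and 5.58 in the maxilla. For both genes it is a lower bound in size, since the control maxilla was at background. The knockout mandible was at background for Pou4f1 but lay above it for Ppp1r1c. The second probe set of Pou4f1 gave -8.87, so the genes are not ranked. Ppp1r17, another phosphatase inhibitor, read 9.23, 8.37 and 7.74, then 5.09, 5.96 and 5.36 in the mandible, and 6.09, 5.92 and 6.08, then 11.80, 11.64 and 8.81 in the maxilla. Neither jaw had overlapping genotypes, and the jaw difference was -7.70 (SE 0.80, adjusted p = 6.93e-05). In these 3 genes the control mandible stood above the control maxilla and the knockout mandible below the knockout maxilla. Such a reversal of the jaws, with no overlap in either genotype, was seen in 0.457% of all genes tested, and the opposite reversal in 0.181%.

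Genes of the neuronal cytoskeleton and membrane followed. Prph encodes peripherin, the intermediate filament of peripheral neurons. It read 9.64, 8.85 and 8.90 in control and 5.55, 7.20 and 5.47 in knockout mandible, and 8.03, 8.29 and 8.22 in control and 12.96, 11.85 and 9.92 in knockout maxilla, with no overlap in either jaw. Its jaw difference was -6.45 (SE 0.89, adjusted p = 0.00199). Other probe sets of Prph had the same direction but jaw differences of only -0.56 to -0.02. Sncg, gamma-synuclein, read 9.81, 8.97 and 8.78, then 7.36, 7.77 and 7.62 in the mandible, and 6.79, 6.68 and 6.95, then 12.79, 11.80 and 9.79 in the maxilla. The jaw difference of Sncg was -6.25 (SE 0.68, adjusted p = 0.000107), again without overlap. Nefm, a neurofilament subunit, had a jaw difference of -5.45 (SE 0.99, adjusted p = 0.0158).

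Factors and channels of sensory neurons also had negative jaw differences. Prrxl1 (also Drgx), a homeodomain factor of sensory neurons and their central targets, read 8.51, 8.05 and 7.67, then 5.93, 6.33 and 6.30 in the mandible, and 6.23, 6.40 and 6.15, then 11.48, 10.79 and 8.39 in the maxilla. The genotypes did not overlap in either jaw, and the jaw difference was -5.85 (SE 0.66, adjusted p = 0.000139). Onecut2, a cut-homeodomain factor, had one of -6.70, and Pirt, a membrane regulator of TRP channels in sensory neurons, one of -5.60 (SE 0.83, adjusted p = 0.00336). Scn9a, a voltage-gated sodium channel of sensory neurons, read 8.96, 8.28 and 8.19, then 5.23, 6.17 and 5.37 in the mandible, and 8.01, 8.75 and 8.71, then 11.70, 11.03 and 9.26 in the maxilla, a jaw difference of -5.06 (SE 0.83, adjusted p = 0.00715) with no overlap between genotypes, while the jaws of the controls overlapped. Slc17a6, the vesicular glutamate transporter 2, had a jaw difference of -4.84 (SE 0.84, adjusted p = 0.0117), but 1 knockout maxilla array, number 3 at 8.28, lay within the control range of 7.78 to 8.67. The transcript D930028M14Rik completed the 12 largest negative differences at -5.59.

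For Neurod1 and Nhlh2 the effect passed in the mandible and not in the maxilla. Neurod1 read 9.79, 9.43 and 8.72 in the control mandible and 5.03, 6.11 and 4.85 in the knockout mandible, with no overlap. In the maxilla it read 10.94, 11.50 and 11.50 in control and 11.76, 12.16 and 11.48 in knockout, and these overlapped. The mandible effect was -3.98 (SE 0.50, adjusted p = 0.00336), the maxilla effect 0.48 (adjusted p = 0.568) and the jaw difference -4.47 (SE 0.70, adjusted p = 0.00526). Nhlh2 was alike: 9.49, 8.99 and 8.07, then 5.08, 5.64 and 5.06 in the mandible, without overlap, and 11.06, 11.54 and 11.40, then 11.41, 12.06 and 11.02 in the maxilla, with overlap. Its mandible effect was -3.59 (SE 0.51, adjusted p = 0.00981), its maxilla effect 0.17 (adjusted p = 0.865), and its jaw difference -3.75 (SE 0.72, adjusted p = 0.0199), which passed in 4 of the 12 fits without 1 array. Neurog1, upstream of both in the textbook order, had effects of -2.24 in the mandible and -0.03 in the maxilla, and its jaw difference of -2.20 did not pass (adjusted p = 0.165). Nhlh1, the relative of Nhlh2, had effects of -1.11 and 0.29, and its jaw difference of -1.40 did not pass (adjusted p = 0.257). Neurog2, a relative of Neurog1, had effects of -0.12 and 1.48, with a jaw difference of -1.60 that did not pass, and Neurod4 was not tested.

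Isl1, the LIM-homeodomain factor of differentiating sensory neurons, had its larger effect in the maxilla. It read 10.85, 10.51 and 9.72, then 9.31, 9.09 and 9.10 in the mandible, and 9.99, 9.71 and 9.99, then 12.93, 12.89 and 10.83 in the maxilla. The genotypes did not overlap in either jaw, and the jaw difference was -3.51 (SE 0.55, adjusted p = 0.00526). Neurod1, Nhlh2, Pou4f1 and Ppp1r1c were the 4 genes of the negative group that also fell in the mandible at the threshold.

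**Figure D2:**
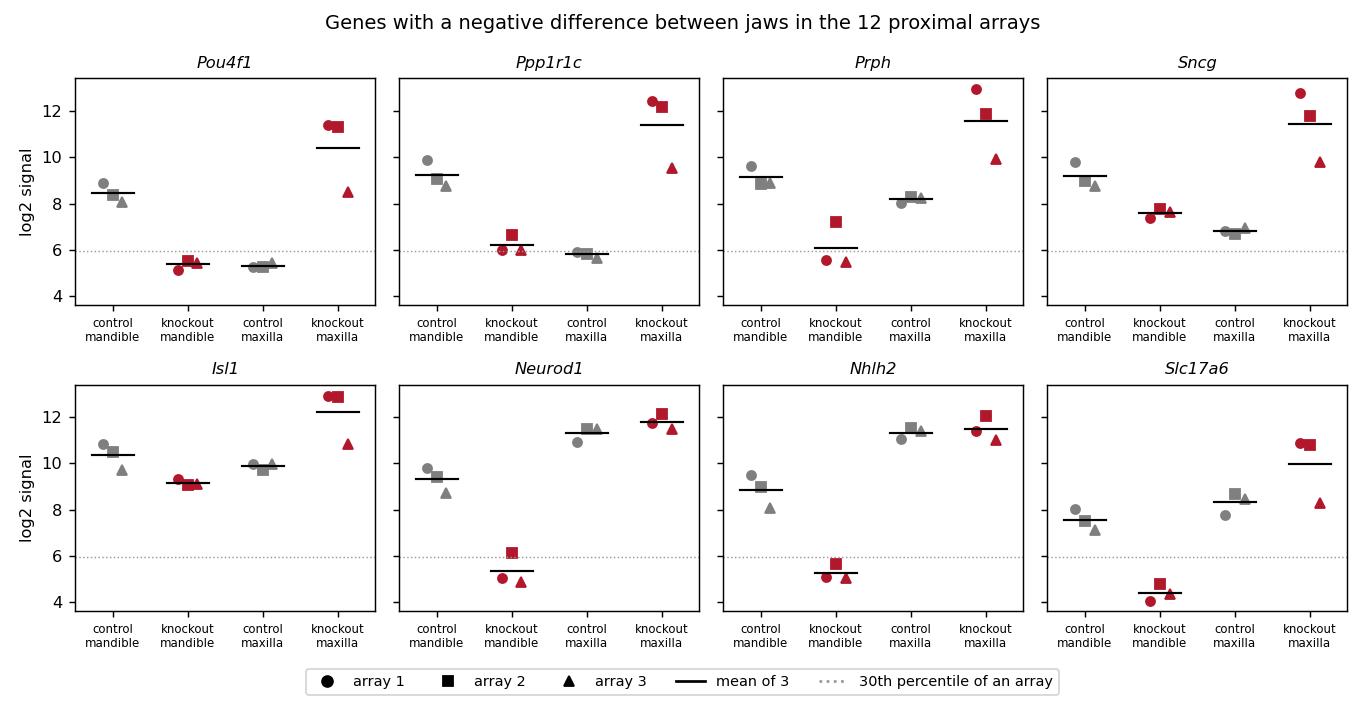
Log2 RMA level (y) of 8 neuronal genes on each of the 12 proximal arrays, by jaw and genotype, with 1 dot per array, a bar at each group mean and a dotted line at the 30th percentile of the arrays. Pou4f1 and Ppp1r1c are lowest in the knockout mandible and control maxilla and highest in the knockout maxilla, while Neurod1 and Nhlh2 drop in the knockout mandible and hold near 11 to 12 in both maxilla groups.

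Counts over whole lists describe the neuronal genes further. The lists were chosen with earlier results of these data known and hold many of the genes above, so they are no separate evidence. Of 17 general neuron genes, all tested, 8 passed with a negative jaw difference and none with a positive one. Over all genes tested, 0.423% passed with a negative and 0.276% with a positive difference. At an unadjusted p under 0.05 the limma counts for the 17 were 16 negative and 0 positive. None of the 17 had a positive difference, and their median was -2.33, against 0.015 over all genes tested, of which 6.05% were negative and 5.86% positive at an unadjusted p under 0.05. The median effect of the 17 was -0.93 in the mandible and 1.35 in the maxilla. Of 17 sensory neuron factors and receptors, 14 were tested, and 6 passed, all negative, with a median of -1.92. Further members that passed were Nefl at -4.68, Snap25 at -4.55, Stmn3 at -4.47, Ina at -4.08, Tlx3 at -2.87 and Elavl4 at -2.64. The mean level of the 17 neuron genes was 9.44 to 10.14 on the control mandible arrays, 8.29 to 8.75 on the knockout mandible, 9.46 to 9.83 on the control maxilla and 10.42 to 12.34 on the knockout maxilla. The amount of nerve or ganglion in each piece of tissue was not measured, and its part in the result was not tested. The median of the neuron list stayed between -2.91 and -2.01 as single arrays were left out and was -1.22 without knockout maxilla 1 and 2.

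Genes of the positive group were led by epithelial genes, which were lower in the knockout maxilla. Elf5, an ETS factor of epithelia, read 10.93, 10.73 and 10.56 in control and 5.82, 5.43 and 9.74 in knockout maxilla, without overlap but with array 3 close to control. In the mandible it read 6.40, 6.16 and 5.91 in control and 7.31, 7.18 and 6.38 in knockout, which overlapped slightly. Its fall in the maxilla was -3.74 (adjusted p = 0.0127) and its jaw difference 4.54 (SE 1.0, adjusted p = 0.0439). That difference passed in 1 of the 12 fits without 1 array, the one without knockout maxilla 3, and was 1.79 without knockout maxilla 1 and 2. A second probe set of Elf5, with a mean of 5.18 over all arrays, had a jaw difference of only 0.57.

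Krt8 and Krt18, the keratin pair of simple epithelia, had jaw differences of 4.04 (SE 0.86, adjusted p = 0.0364) and 3.38 (SE 0.70, adjusted p = 0.0339). Krt8 read 8.86, 9.03 and 7.92, then 9.48, 9.61 and 12.28 in the mandible, and 11.83, 11.76 and 11.77, then 8.44, 9.27 and 11.08 in the maxilla. The genotypes did not overlap, but knockout mandible 3 stood high, and without it the jaw difference of Krt8 was 3.13. Krt18 had the same outlying array, at 11.25 against 9.21 and 9.23. The junction gene Cldn7, a claudin, read 8.65, 8.74 and 8.09, then 9.29, 9.43 and 10.02 in the mandible, and 11.15, 11.47 and 11.41, then 7.88, 8.94 and 10.95 in the maxilla, with no overlap and a jaw difference of 3.18 (SE 0.68, adjusted p = 0.0366). Macc1, a regulator of MET signalling, had the most stable call of the 12 largest, a jaw difference of 3.47 (SE 0.64, adjusted p = 0.0165) that passed in 8 of the 12 fits. The other largest positive differences were Esrp1, an epithelial splicing factor, at 3.09, Ripk4, a kinase of keratinocyte differentiation, at 3.08, Gm16136 at 2.99, Tmem54 at 2.82, the tight junction gene Ocln at 2.82, the claudin Cldn6 at 2.81 and Ap1m2, an adaptor subunit of epithelial sorting, at 2.68. Second probe sets gave smaller values of 1.27 for Ripk4 and 1.80 for Ocln, while the other probe sets of Krt8 gave 4.038 and 3.885. None of the 41 passed within the mandible alone by limma.

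Of 19 epithelium genes, 17 were tested, all 17 had a positive jaw difference, 6 passed (0.276% of all genes passed with a positive difference), and 13 reached an unadjusted p under 0.05 (5.86% of all genes), with a median of 2.35. Their median effect was 0.94 in the mandible and -1.53 in the maxilla, where 10 fell (2.53% of all genes). The sixth gene to pass for the jaw difference was Epcam, an adhesion molecule of epithelial cells, at 2.57 (SE 0.56, adjusted p = 0.0408). A second, dimmer probe set of Epcam gave 0.74. E-cadherin, Cdh1, missed at 2.52 (adjusted p = 0.0527). The keratins of the basal layer did not pass, with Krt5 at 1.48 (adjusted p = 0.545) and the basal regulator Trp63 at 1.69 (adjusted p = 0.468). The mean level of the list was 8.12 to 9.22 on the control mandible arrays, 9.22 to 9.95 on the knockout mandible, 9.84 to 10.20 on the control maxilla and 8.07 to 9.79 on the knockout maxilla. The share of epithelium in each piece was not measured, and its part in the result was not tested. The list's median lay between 2.01 and 3.00 as single arrays were left out and was 1.08 without knockout maxilla 1 and 2.

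**Figure D3:**
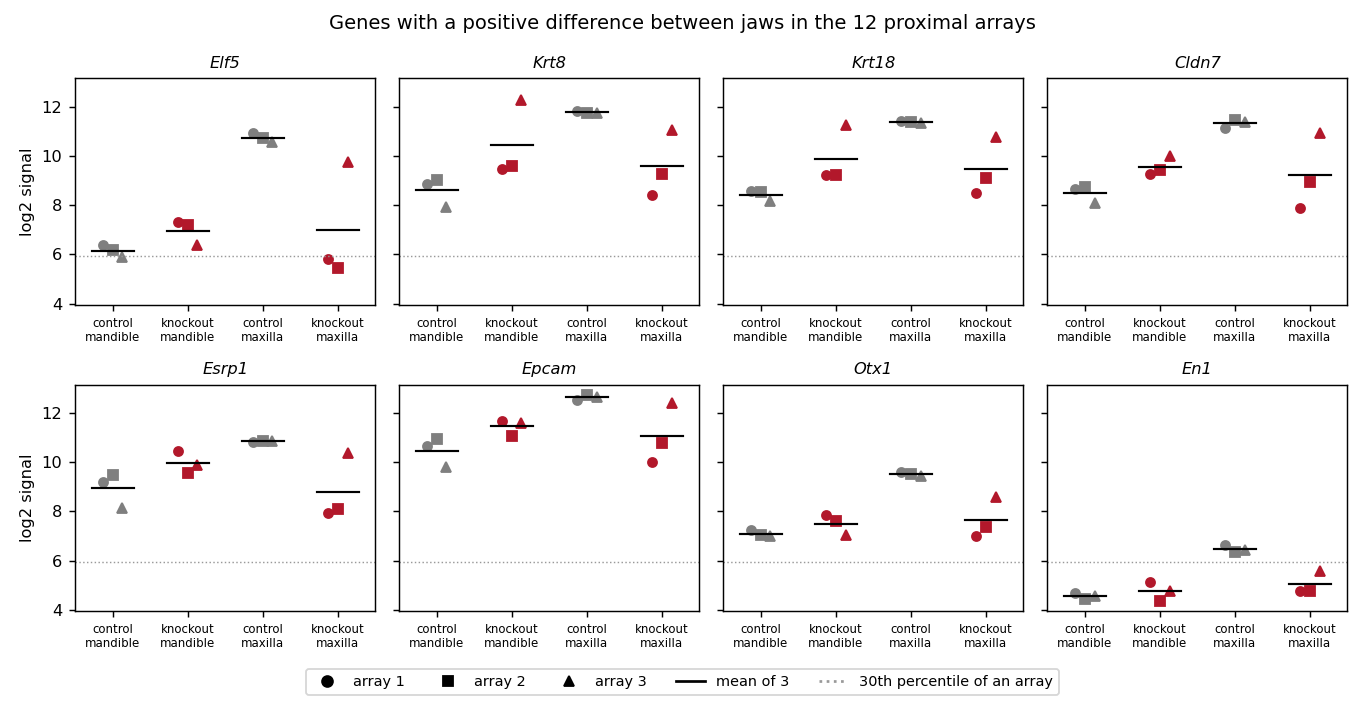
Log2 RMA level (y) of 8 genes with a positive jaw difference on each of the 12 proximal arrays, by jaw and genotype, with 1 dot per array, a bar at each group mean and a dotted line at the 30th percentile. Each gene is higher in the control maxilla than in the control mandible, and knockout maxilla 3 lies above knockout maxilla 1 and 2.

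The positive group also held patterning and signalling genes outside the epithelium list. Otx1, a homeodomain factor of the head, read 7.25, 7.05 and 7.0, then 7.84, 7.60 and 7.05 in the mandible, which overlapped, and 9.61, 9.52 and 9.43, then 6.99, 7.36 and 8.60 in the maxilla, which did not. Its jaw difference was 2.27 (SE 0.45, adjusted p = 0.0236). En1, a homeodomain factor of ectoderm and midbrain, had one of 1.62 (adjusted p = 0.0436), a lower bound, since its control mandible and knockout maxilla arrays were at background. Gdnf, the ligand of the RET receptor complex, had one of 1.15 (SE 0.24, adjusted p = 0.0339), with 6.73 to 6.87 in control and 7.11 to 7.40 in knockout mandible and 8.13 to 8.35 in control and 7.48 to 7.67 in knockout maxilla, so that neither jaw had overlapping genotypes. In the maxilla alone the largest falls, after Elf5, were Atp8b4, a lipid flippase, at -3.61 (adjusted p = 0.0171), Sult1e1, oestrogen sulfotransferase, at -3.56 (adjusted p = 0.0158) and Sp8, a zinc-finger factor of facial and limb ectoderm, at -3.34 (adjusted p = 0.0172). Sp8 read 9.61, 10.10 and 9.88 in control and 4.61, 5.87 and 9.10 in knockout maxilla, and was at background, 4.31 to 4.64, on all 6 mandible arrays.

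The bases before the start sites of genes from both groups were read to show what their promoters hold. The windows are the 250 bases before the RefSeq start in GRCm38.p6, printed 5′ to 3′ on the gene's strand, with capitals on the 6-base motifs searched on both strands. All are E-boxes, the sites of bHLH and some zinc-finger factors. Of the 3 motifs, CACCTG becomes on the opposite strand CAGGTG. Likewise the motif CAGATG becomes on the opposite strand CATCTG. Lastly the motif CAGCTG is the same whichever strand is read. Pou4f1 (chr14:104468000-104468249, minus strand) and Nhlh2 (chr3:102009895-102010144, plus strand) stand for the negative group, and Krt8 (chr15:102004343-102004592, minus strand), Epcam (chr17:87635729-87635978, plus strand) and Cldn6 (chr17:23679115-23679364, plus strand) for the positive one.
Pou4f1: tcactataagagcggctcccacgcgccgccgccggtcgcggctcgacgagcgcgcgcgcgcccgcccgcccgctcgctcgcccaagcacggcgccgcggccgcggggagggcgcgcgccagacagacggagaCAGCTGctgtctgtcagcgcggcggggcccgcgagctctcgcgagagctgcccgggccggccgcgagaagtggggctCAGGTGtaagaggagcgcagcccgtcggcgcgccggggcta
Nhlh2: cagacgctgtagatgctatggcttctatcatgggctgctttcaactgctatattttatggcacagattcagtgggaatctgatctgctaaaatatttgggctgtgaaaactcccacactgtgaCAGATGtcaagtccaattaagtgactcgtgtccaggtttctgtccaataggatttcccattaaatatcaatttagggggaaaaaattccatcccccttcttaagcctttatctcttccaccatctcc
Krt8: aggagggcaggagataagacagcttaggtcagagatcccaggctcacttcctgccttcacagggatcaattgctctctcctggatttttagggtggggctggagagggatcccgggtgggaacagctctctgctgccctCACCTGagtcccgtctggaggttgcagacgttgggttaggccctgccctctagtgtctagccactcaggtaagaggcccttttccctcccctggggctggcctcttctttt
Epcam: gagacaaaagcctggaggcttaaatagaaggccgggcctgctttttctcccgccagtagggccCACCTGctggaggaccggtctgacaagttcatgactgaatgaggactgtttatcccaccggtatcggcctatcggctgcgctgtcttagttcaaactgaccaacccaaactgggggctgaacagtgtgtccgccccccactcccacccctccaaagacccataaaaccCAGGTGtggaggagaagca
Cldn6: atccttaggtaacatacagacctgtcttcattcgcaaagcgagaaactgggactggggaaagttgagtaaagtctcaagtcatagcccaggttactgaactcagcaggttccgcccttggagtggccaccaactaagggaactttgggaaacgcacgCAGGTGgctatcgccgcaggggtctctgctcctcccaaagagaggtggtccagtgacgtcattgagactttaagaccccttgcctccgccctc
Pou4f1 holds a CAGCTG and a CAGGTG, Nhlh2 a CAGATG, Krt8 a CACCTG, Epcam both a CACCTG and a CAGGTG, and the window of Cldn6 a CAGGTG, each shown in capitals above.

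A CACCTG on either strand was in 19 of 39 promoters of the positive group (48.7%), 12 of 67 of the negative group (17.9%) and 2530 of 15164 promoters of the genes tested (16.7%). By gene, 30 of the 41 positive and 47 of the 63 negative genes were matched to RefSeq windows. CAGATG was in 7.69% of the positive, 17.9% of the negative and 10.8% of all promoters, and CAGCTG in 12.8%, 13.4% and 12.6%. The median GC content was 61.6% in the positive, 54.8% in the negative and 59.2% in all windows. These motifs were chosen after the values were seen, a gene can have several promoters, and a match is a description of letters.

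Skeletal muscle genes had large but unsettled differences. Of 35, all tested, none passed for the jaw difference by limma, while 21 were negative and 1 positive at an unadjusted p under 0.05 (6.05% and 5.86% of all genes), and their median was -1.91. Their mean level was 9.73 to 10.06 in the control and 9.91 to 10.13 in the knockout mandible, and 6.66 to 7.03 in the control against 7.85 to 10.04 in the knockout maxilla. Within the maxilla 11 of the 35 rose, against 3.25% of all genes. Mylpf, a fast myosin light chain, read 6.71, 7.43 and 7.11 in control and 12.12, 10.56 and 8.73 in knockout maxilla, and 11.48 to 11.94 on all 6 mandible arrays. Its jaw difference was -3.33 (SE 1.3, adjusted p = 0.261), so a knockout effect confined to 1 jaw was not established for it. Mymx, a micropeptide of myoblast fusion, was close to it at -3.52 (SE 1.3, adjusted p = 0.234).

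Glial genes had effects in the maxilla. Of 9 tested of 11 Schwann cell precursor genes, 6 rose there (3.25% of all genes), with a median of 1.08, while the median in the mandible was -0.08. None passed for the jaw difference by limma, 7 were negative (6.05% of all genes) and none positive at an unadjusted p under 0.05, and the median was -1.11. Gfra3, a receptor of artemin, read 8.61 to 9.13 in control and 8.70 to 8.84 in knockout mandible, and 8.18 to 8.61 in control and 9.07 to 10.62 in knockout maxilla, a jaw difference of -1.60 (SE 0.41, adjusted p = 0.0767). Fabp7, a fatty acid binding protein of glial precursors, had one of -4.31 (adjusted p = 0.0975). All 10 Hox genes tested, of 15, had a negative jaw difference, with a median of -0.36. None passed by limma, and 2 were negative and 0 positive at an unadjusted p under 0.05. Hoxd1, a Hox gene of segments behind the jaws, rose by 3.98 in the maxilla (adjusted p = 0.0333) and had a jaw difference of -4.32 (adjusted p = 0.196). Of 17 macrophage genes 15 had a negative jaw difference (6953 of all 14879 genes), with a median of -0.52. That median lay between -0.68 and -0.16 as single arrays were left out. It was -0.13 without control maxilla 1 and knockout mandible 1. The mean level of the list was 7.57 on control maxilla 1, against 8.40 and 8.54 on the others of its group. None of the 17 passed by limma, and 1 was negative and 0 positive at an unadjusted p under 0.05. In the maxilla 8 were higher in knockout at that level (12% of all genes), 1 of them at the threshold. Endothelial genes had a median of -0.09, which lay between -0.16 and 0.05 as single arrays were left out, and a mean level of 9.59 to 10.17 over all 12 arrays.

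**Figure D4:**
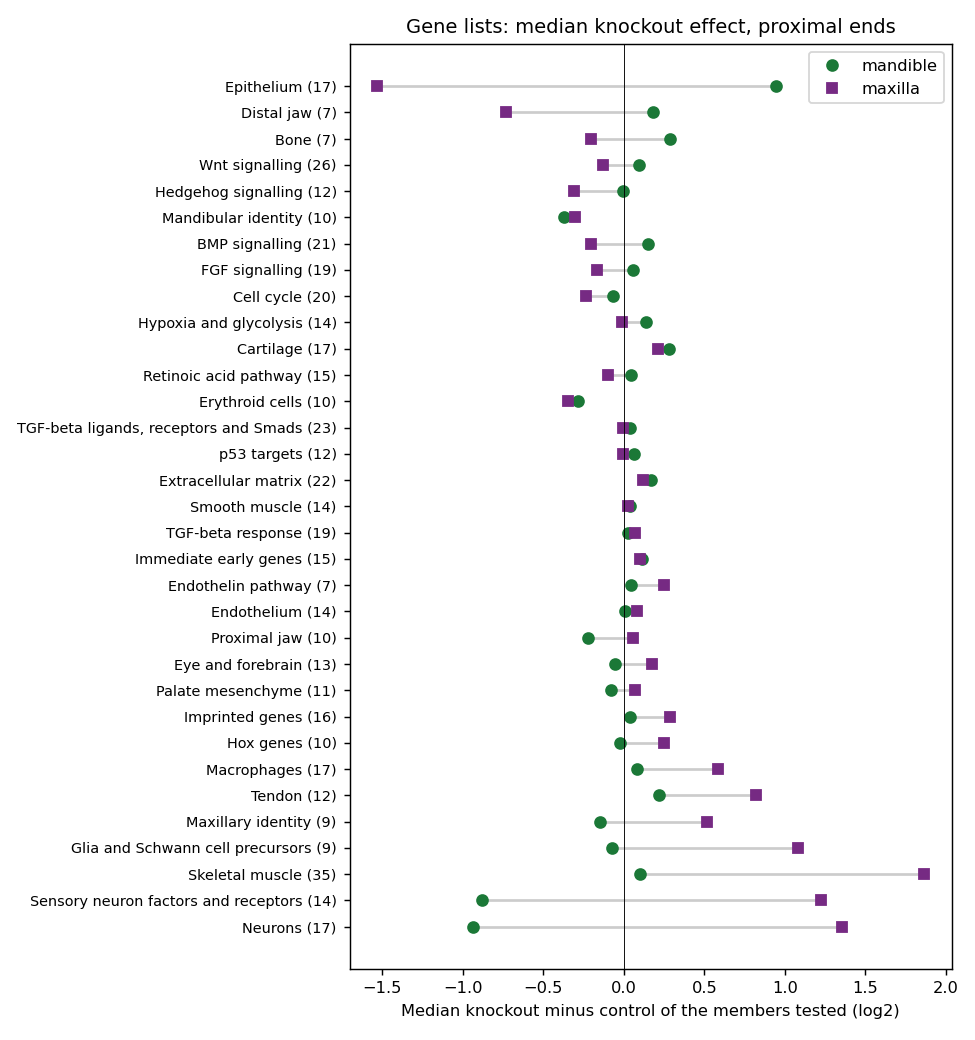
Median knockout-minus-control difference in log2 units over the tested members of 33 gene lists, with circles for the proximal mandible and squares for the proximal maxilla. The neuron lists lie below 0 in the mandible and above it in the maxilla, the epithelium list the other way round, and the skeletal muscle list near 0 in the mandible and at 1.87 in the maxilla.

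No member of the signalling lists passed the test of the jaw difference. Over all genes, 5.86% were positive and 6.05% negative at an unadjusted p under 0.05, and the list counts that follow are read against those shares. Of 23 TGF-beta ligands, receptors and Smads, 2 were positive and 1 negative at an unadjusted p under 0.05 by limma, near those shares, with a median of 0.06 and a range from -1.04 to 0.65. Inhbb, the activin B subunit, was lowest at -1.04, with 1.48 in the maxilla, and Smad6, an inhibitory Smad, highest. Ltbp2, a latent TGF-beta binding protein, rose in the maxilla by 0.997 (adjusted p = 0.0393) and had a jaw difference of -0.86 (adjusted p = 0.378). Smad3, a receptor-activated Smad of this pathway, fell in the maxilla by 0.36 (adjusted p = 0.0394) and had a jaw difference of 0.36 (adjusted p = 0.288). Of 19 TGF-beta response genes, 1 was negative and none positive at that level, with a median of -0.04 that lay between -0.10 and 0.07 as single arrays were left out. The same counts were 5 positive and 0 negative of 26 Wnt genes and of 21 BMP genes, with medians of 0.47 and 0.27. Among them Wnt4, a Wnt ligand, stood at 1.86 (adjusted p = 0.0935), Dkk1, a secreted Wnt antagonist, at 2.02 (adjusted p = 0.171) and Bmp4, a BMP ligand, at 1.29. Hedgehog genes had a median of 0.32, with 4 positive and 0 negative at an unadjusted p under 0.05. Smo, the signal transducer of the pathway, fell in the maxilla by 0.43 (adjusted p = 0.0223), with 11.65 to 11.93 in knockout against 12.06 to 12.36 in control, and its jaw difference was 0.36 (adjusted p = 0.267).

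Genes that separated the genotypes in both jaws alike give the contrast. H2az2, a histone H2A variant, read 13.59, 13.65 and 13.60, then 12.88, 13.19 and 13.14 in the mandible, and 13.48, 13.54 and 13.56, then 12.69, 12.98 and 13.03 in the maxilla. It fell in both, by 0.54 (adjusted p = 0.0185) and 0.63 (adjusted p = 0.00156), without overlap, and its jaw difference was 0.09 (adjusted p = 0.836). The 2610524H06Rik transcript rose by 0.57 in the mandible and 0.68 in the maxilla. Over all genes, 134 (0.901%) were higher and 109 (0.733%) lower in knockout in both jaws with no overlap.

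At the distal ends no gene passed the test of the jaw difference by limma, with 377 (2.53%) positive and 276 (1.85%) negative at an unadjusted p under 0.05. The 63 negative genes had a median jaw difference of -0.01 there and the 41 positive genes one of -0.03. Both groups were picked by the proximal jaw difference, which favours a smaller distal one, so these medians are a description. Whether the proximal jaw difference exceeded the distal one was tested directly, and 5 genes passed (0.0336%), all negative. No gene passed with a positive difference by limma, and at an unadjusted p under 0.05 the counts were 738 (4.96%) positive and 874 (5.87%) negative. They were Ppp1r1c at -8.46 (SE 1.0, adjusted p = 0.00179), Pou4f1 at -7.54 (SE 0.96, adjusted p = 0.00207), Ppp1r17 at -7.60 (SE 1.1, adjusted p = 0.0121), Sncg at -6.24 (SE 0.96, adjusted p = 0.0147) and Prrxl1 at -5.43 (SE 0.93, adjusted p = 0.0442). For Pou4f1 the distal jaw difference was -0.61 and for Ppp1r1c -0.16. The positive genes nearest the threshold were Plpp2, a lipid phosphatase, and Glt28d2, a predicted glycosyltransferase, both with an adjusted p of 0.157. A second, dimmer probe set of Plpp2 had a proximal jaw difference of -0.30, against 0.60 for the one used. The difference between ends was not established for any gene of the positive group. Without knockout maxilla proximal 3 the count was 896, without knockout mandible proximal 2 it was 10, and in the other 22 fits without 1 array it was 4 or 5. Without control maxilla 1 and knockout mandible 1 (at both ends) it was 0 by limma (538 positive and 304 negative at an unadjusted p under 0.05). Without the control arrays of number 2 it was also 0 (618 and 867).

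**Figure D5:**
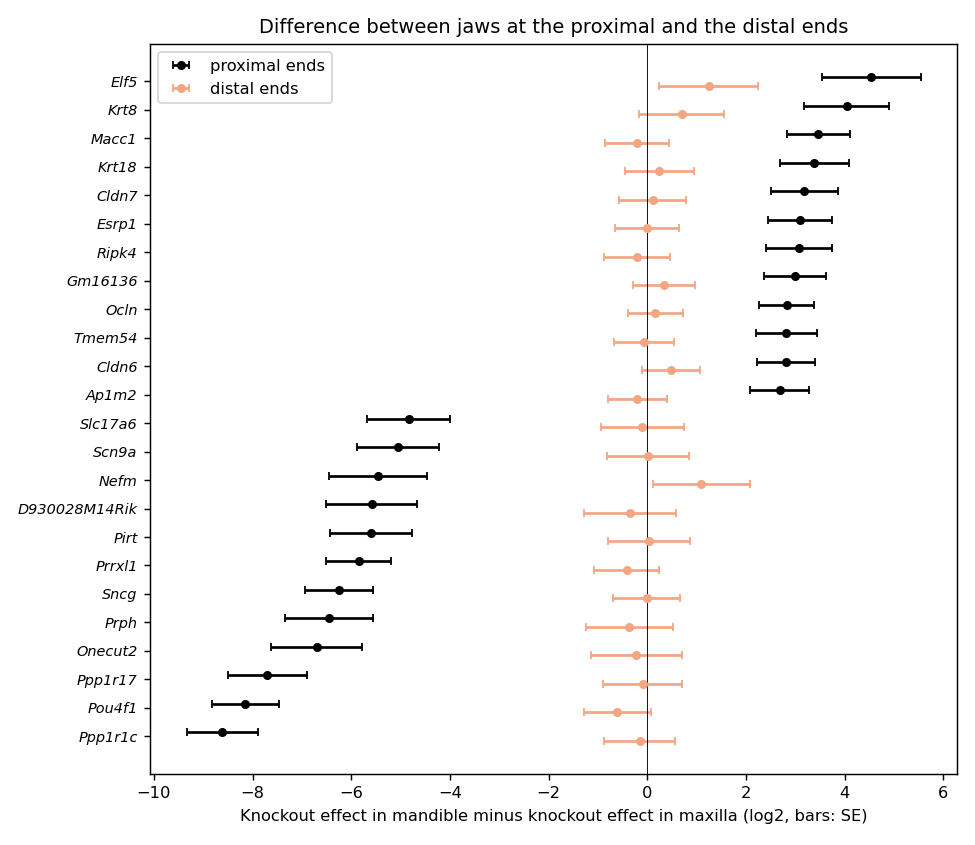
Jaw difference in log2 units at the distal ends and at the proximal ends for the 24 genes with the largest proximal jaw differences among those that passed, with bars of 1 SE. The proximal values reach from -8.61 to 4.54, and for Pou4f1 and Ppp1r1c the distal values are -0.61 and -0.16.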

How the data were processed

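The deposited values are log2 intensities that the authors obtained with RMA (version not given), per the submitters' processing notes, on single-colour arrays of 45101 probe sets; no normalization was added. RMA sets all arrays to 1 distribution, so a change shared by most genes would not show. For each gene the probe set with the highest mean over all arrays was used (34945 probe sets name 1 gene), and a gene was tested where it exceeded its array's 30th percentile in at least 3 arrays. Group means of all 8 groups (24 arrays) were fitted in limma 3.58.1 (R 4.3.3) with empirical Bayes; contrasts gave the knockout effect in each proximal jaw, their difference, and that difference against the distal ends, each adjusted by Benjamini-Hochberg over all genes. With 3 arrays in a group, their number limits the precision.

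The members and the gene lists were chosen with earlier results of these data known. Of 513 list genes, 480 were matched and 467 tested. Genes named were the 12 largest positive and 12 largest negative jaw differences that passed, the 4 smallest p-values of each list, and the 4 largest rises and falls of each other result, filled by smallest p. Chosen only once values had been seen were Nhlh1, Nhlh2, Neurog1, Neurog2, Inhbb, Nefl, Snap25, Tlx3, Elavl4, Epcam, Cdh1, Krt5, Trp63, En1, Gdnf, Hand2 and the genes of the promoter windows. Alternatives changed the filter, probe set rule, normalization, prior, array weights, arrays used and replicate block.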

Additional observations from a re-analysis of the deposited data

Results flagged for a closer look

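The knockout effect differed between the jaws by the test of the difference itself in 104 genes. With a negative difference these were led by Ppp1r1c (-8.61), Pou4f1 (-8.15), Ppp1r17 (-7.70), Onecut2 (-6.70), Prph (-6.45), Sncg (-6.25), Prrxl1 (-5.85), Pirt (-5.60), D930028M14Rik (-5.59), Nefm (-5.45), Scn9a (-5.06) and Slc17a6 (-4.84). With a positive difference they were led by Elf5 (4.54), Krt8 (4.04), Macc1 (3.47), Krt18 (3.38), Cldn7 (3.18), Esrp1 (3.09), Ripk4 (3.08), Gm16136 (2.99), Tmem54 (2.82), Ocln (2.82), Cldn6 (2.81) and Ap1m2 (2.68). The jaw difference itself differed between the proximal and distal ends for Ppp1r1c (-8.46), Ppp1r17 (-7.60), Pou4f1 (-7.54), Sncg (-6.24) and Prrxl1 (-5.43).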

How the results depend on the processing

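None of the 59 single genes followed changed sign under any alternative here, though the alternatives reuse arrays of the main fit. The jaw difference gave 104 genes, with 90 to 140 under other filters, probe set rules, priors and normalizations (medians equal, cyclic loess) and 20 to 1423 without 1 array. It gave 2194 with array weights, 10 on the 12 proximal arrays alone, 5 without control maxilla 1 and knockout mandible 1, 5 without the number 2 controls, and 25 without knockout maxilla 1 and 2 (added after seeing the data). The mandible effect gave 8 genes, 0 to 28 without 1 array, 294 with weights, 2 on the proximal arrays, 2 without the doubted arrays, 31 without knockout maxilla 1 and 2 and 0 without the number 2 controls (limma, 224 higher and 139 lower at unadjusted p under 0.05). The maxilla effect gave 859, 19 to 3366 without 1 array, 3245 with weights, 37 on the proximal arrays, 15 without the doubted arrays, 17 without the number 2 controls and 7 without knockout maxilla 1 and 2. The proximal-minus-distal test gave 5, 4 to 896 without 1 array, 1220 with weights, 11 without knockout maxilla 1 and 2, and 0 without the doubted arrays (538 and 304 unadjusted) or the number 2 controls (618 and 867 unadjusted). The labels do not say that a shared number marks shared embryos, and whether the numbers pair arrays is not settled. The deviations of same-numbered arrays of a genotype, not their levels, correlated across jaws at 0.12 to 0.36 in control. In knockout these correlations were 0.07 to 0.25. Not all were above 0.1, although each array correlated best with its own number, a hint from the data. With number within genotype as a replicate block (6 fixed blocks) the jaw difference gave 175, the mandible 37, the maxilla 3194 and the proximal-minus-distal test 9. As 3 fixed blocks the jaw difference gave 153 and the maxilla 1717, and as a random block the jaw difference gave 229. With 6 blocks on the 12 proximal arrays (added) the counts were 1, 1 and 4 for the jaw difference, mandible and maxilla. The array weights were lowest for knockout maxilla 3. The cause of these shifts was not tested. Of 59 single genes, 5 passed without the doubted arrays and 9 on the proximal arrays.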
